A study of Homo sapiens with 2 samples.

Results

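Histone-rich cells are the WaGa cells with a high content of the histone H4 transcript HIST1H4C, and they were chosen by that transcript alone: a cell belonged to the set when it held at least 50 HIST1H4C molecules per 10000 molecules counted in the cell. The rule found 2653 of 10816 cells, 2164 of 6679 cells in the library of domatinostat-treated cells and 489 of 4137 cells in the untreated library. Because the cells were picked by a measured value, every difference between them and the remaining cells of the same library is a description of the chosen cells and carries no test.

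The WaGa line was derived from a Merkel cell carcinoma, a neuroendocrine tumour of the skin, and its growth depends on an integrated Merkel cell polyomavirus. Domatinostat inhibits class I histone deacetylases, the enzymes that take acetyl groups off histones. The compared groups were WaGa cells exposed to domatinostat and WaGa cells with no treatment, 1 single-cell library each, with no dose, time or solvent stated. Since a single library stood for each group, nothing could be checked over replicates, and all intervals below are 95% exact intervals that cover counting error only.

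The libraries held 60160108 molecules after domatinostat and 45562976 without treatment, counted as unique molecular identifiers (UMIs). Cells were assigned to a library by the treatment word in the cell name, and 48 cell barcodes occurred in both libraries (18 histone-rich and 30 remaining cells after domatinostat, 10 and 38 without treatment). CDKN1A, a cell cycle inhibitor commonly induced by inhibitors of histone deacetylases, was lower in the library named treated, at 30.8 against 88.3 counts per 1000000 counts (CPM) in histone-rich cells and 44.4 against 99.5 CPM in remaining cells, so directions between libraries rest on the names. Summed markers of Merkel cell carcinoma were at 2387 CPM in histone-rich cells after domatinostat and 2519 CPM without treatment, and all 10 of 10 markers were detected in both. T cell, B cell, myeloid, endothelial, melanocyte and erythroid marker sums lay between 0 and 9.92 CPM in every state, fibroblast markers between 14.2 and 29.9 CPM, and the keratinocyte set, through KRT10 and SFN, between 355.8 and 403.5 CPM.

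Replication-dependent histones are encoded by clustered intronless genes that are transcribed when DNA is copied, since new chromatin needs core histones H2A, H2B, H3 and H4 and the linker histone H1. Most of their mRNAs end in a conserved stem-loop bound by SLBP, without the poly(A) tail on which oligo(dT)-primed 3′ libraries rely, so such libraries see them only in part. Ribonucleotide reductase, thymidine kinase and the replication fork proteins serve the same phase of the cell cycle, whereas cyclin B and its partners serve the next one.

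The linker histone promoters are shown because the H1 genes had the highest ratios of all histone genes between histone-rich and remaining cells. Each is the 150 bases before the annotated start in RefSeq (GRCh38.p14), read on the strand of the gene, and capitals mark the linker histone motif AAACACA as well as the box CCAAT and the TATA-like element TATATA, each searched on both strands; copies of TATATA may overlap one another.
HIST1H1B (H1-5, chr6:27867589-27867738, minus strand): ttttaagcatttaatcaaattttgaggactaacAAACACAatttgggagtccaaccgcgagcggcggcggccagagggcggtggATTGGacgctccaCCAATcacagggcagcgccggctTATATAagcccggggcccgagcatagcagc
HIST1H1C (H1-2, chr6:26056471-26056620, minus strand): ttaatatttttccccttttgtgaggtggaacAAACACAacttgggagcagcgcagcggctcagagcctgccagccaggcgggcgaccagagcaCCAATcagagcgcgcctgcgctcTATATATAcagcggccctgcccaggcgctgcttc
HIST1H1E (H1-4, chr6:26156179-26156328, plus strand): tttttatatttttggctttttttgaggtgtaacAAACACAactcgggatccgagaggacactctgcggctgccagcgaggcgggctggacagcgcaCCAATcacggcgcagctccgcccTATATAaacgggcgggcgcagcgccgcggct
HIST1H1D (H1-3, chr6:26234988-26235137, minus strand): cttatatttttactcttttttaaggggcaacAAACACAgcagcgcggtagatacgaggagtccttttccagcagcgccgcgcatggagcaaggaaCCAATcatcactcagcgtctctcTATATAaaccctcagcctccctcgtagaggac

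AAACACA lay in 5 of 6 linker histone promoters and in 0 of 16 H2A, 0 of 13 H2B, 0 of 13 H3 and 0 of 13 H4 promoters, against 2.71% of 35116 promoter windows of the same length. All 3 motifs occurred together in 5 of 6 linker histone windows and in 12 of 35116 windows in all. The motifs alone did not mark the genes that were high, since HIST1H1T has all 3 and gave 1 UMI in the histone-rich cells of each library. CCAAT was found in 16 of 16 H2A, 13 of 13 H2B and 13 of 13 H3 promoters but in 3 of 13 H4 promoters, against 23.5% of all windows. Of the 71 HIST genes in the table, 66 matched 1 RefSeq symbol and 61 had a promoter entry, HIST1H4C not among them. The windows are not all distinct. HIST1H2AD and HIST1H3D share the same window, which counts in both classes, and the windows of HIST2H4A and HIST2H4B have the same sequence.

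Stem-loop sites are shown because they bear on what the assay can count. The consensus of the histone 3′ stem-loop, searched on the transcript strand, was found in GENCODE v29 transcripts of 31 of 71 HIST genes (44 of 100 transcripts), and the capitals mark the whole site.
HIST1H2AI: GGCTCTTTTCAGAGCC
HIST1H2AG: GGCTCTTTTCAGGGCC

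The HIST1H2AI transcript runs 39 bases past its site and the HIST1H2AG transcript 1761 bases past it. Several annotated transcripts without a match were short, such as HIST1H2AJ with 387 bases against 503 for HIST1H2AI. Where the annotation stops before the site it cannot be found, so the search does not show which genes lack a stem-loop. The annotated HIST1H4C transcript gave no match, though with 435 bases it is longer than the matched HIST1H4J transcript of 373 bases. It has 21 A among its last 30 bases, against a median of 10 and a highest count of 30 in the other HIST transcripts. These are the last bases of the annotation, which may stop short of the mRNA end. How far this base composition set the HIST1H4C counts was not tested.

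Histone-rich cells made up 32.4% (31.3 to 33.5) of the domatinostat library and 11.8% (10.9 to 12.8) of the untreated library. After domatinostat, 29.5% of cells lay under 5 per 10000, 33.3% at 5 to 20, 4.81% at 20 to 50, 10.2% at 50 to 100, 16.2% at 100 to 150 and 6.00% above that. Without treatment the same ranges held 58.6%, 26.1%, 3.46%, 6.02%, 5.03% and 0.774% of cells. These ranges differ in width, and per 10 units of level the ranges 20 to 50, 50 to 100 and 100 to 150 held 107, 136.4 and 216.2 cells after domatinostat and 47.7, 49.8 and 41.6 cells without treatment. The treated cells were thus denser at 100 to 150 than just below the threshold, whereas the untreated cells were spread nearly evenly over these ranges. The highest cells reached 273.5 per 10000 after domatinostat and 217 without treatment. The bulk of the remaining cells also lay higher after domatinostat, with a median of 5.62 against 3.44 per 10000 without treatment. No cell type lacking the gene was present to gauge free RNA, and its part in that median was not tested.

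**Figure D1:**
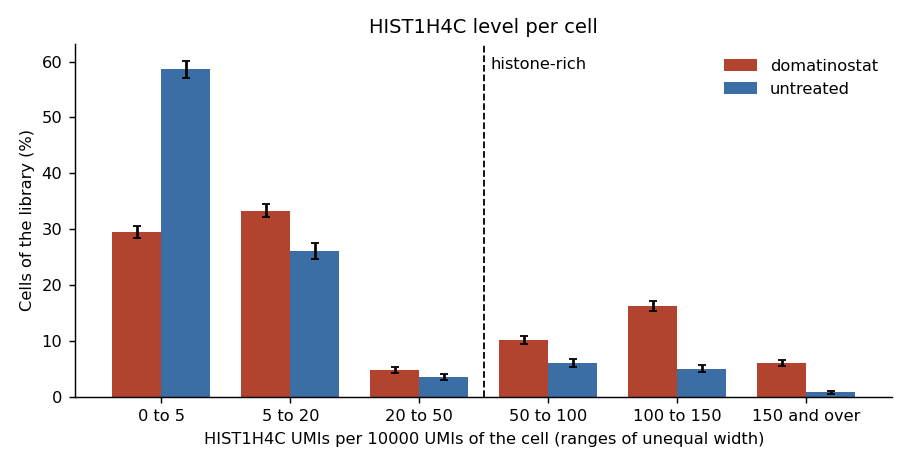
Share of each library's cells (%, vertical axis) by the cell's HIST1H4C level (UMIs per 10000 UMIs, horizontal axis), domatinostat in red and untreated in blue, with 95% exact intervals. The ranges differ in width, so bar heights are shares and not densities. The 100 to 150 range holds 16.2% of cells after domatinostat and 5.03% without treatment, and the dashed line marks the threshold.

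At the threshold itself, the member nearest to it held 50.063 per 10000 after domatinostat and 50.196 without treatment, and the cell nearest below it held 49.898 and 49.39. Between 50 and 55 per 10000 lay 46 cells after domatinostat and 11 without treatment, against 34 and 17 cells between 45 and 50. The lowest HIST1H4C count of a member was 16 UMIs after domatinostat and 21 without treatment, which follows from the rule and the depth of the cells.

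Histone-rich cells held more molecules. Their median was 10205 UMIs against 7816 in the remaining cells after domatinostat, and 13299 against 10750 without treatment. With every cell thinned to 4351 UMIs, the share was 33.3% of 6012 cells after domatinostat and 12.3% of 3892 cells without treatment, and 99.4% and 99.3% of cells kept their call. Thinning to 8578 UMIs, which leaves only the deeper cells, gave 45.2% of 3340 cells and 14.8% of 2897 cells. Of cells with 8000 to 12000 UMIs, 40.5% (38.5 to 42.4) were histone-rich after domatinostat and 8.49% (7.06 to 10.1) without treatment. These shares lay further apart than those of all cells. The window lies above the median of treated remaining cells and below that of untreated histone-rich cells. It thus cuts the libraries at different places, and the part of this in the shares was not tested. At the thinned depth the numbers of genes were alike, 1854 in histone-rich against 1834 in remaining cells after domatinostat, and 1857 against 1837 without treatment. Doublets were not called, and their part in the set was not tested.

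Taken as a sum, the other clustered histone genes were higher in the same cells. The largest parts of that sum were H1 and H2A genes, at 1064 and 568.3 CPM after domatinostat and 1157 and 450.2 CPM without treatment. UMIs summed over the cells of a state and scaled to CPM gave 1908 CPM for the other HIST genes in histone-rich cells against 358.3 CPM in remaining cells after domatinostat, and 2047 against 357.9 CPM without treatment. Histone-rich cells showed a median of 5 other HIST genes at the thinned depth and remaining cells a median of 1, in both libraries. Only 0.649% of histone-rich cells after domatinostat and 0.629% without treatment showed no other HIST gene, against 28.1% and 33.1% of remaining cells. The cells chosen by 1 H4 transcript thus mostly held transcripts of several other histone genes.

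The linker histones, which bind DNA between nucleosomes, showed the highest ratios. HIST1H1B was at 258.1 CPM in histone-rich against 13.2 CPM in remaining cells after domatinostat, a ratio of 19.5 (17.8 to 21.4). Without treatment it was at 231.9 against 8.11 CPM, a ratio of 28.6 (25.3 to 32.4). The size of this ratio moved with the threshold and with the cells set against it: at a threshold of 100 per 10000 it was 7.25 after domatinostat and 13.9 without treatment, and against remaining cells under 10 per 10000 it was 34.1 and 58.1. At the thinned depth it was seen in 61.9% against 5.21% of cells after domatinostat and in 60.4% against 3.25% without treatment. HIST1H1C stood at 428.4 against 47.8 CPM after domatinostat and at 507.7 against 46.5 CPM without treatment. HIST1H1E gave ratios of 9.20 (8.71 to 9.73) and 10.2 (9.51 to 10.8). HIST1H1D, with 13.3 against 1.13 CPM after domatinostat and 39.2 against 3.49 CPM without treatment, gave 11.8 and 11.2.

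Core histones followed with lower ratios. Summed H2A genes were at 568.3 against 97.9 CPM after domatinostat and at 450.2 against 69.8 CPM without treatment. Summed H3 genes were at 75.2 against 22.5 CPM and at 65.9 against 22.4 CPM in the same comparisons. H2B showed the smallest contrast of the well counted classes, with 187.3 against 127.7 CPM after domatinostat and 361.4 against 163.3 CPM without treatment. Most of that H2B signal was HIST1H2BK, at 140.7 against 101.9 CPM after domatinostat and 306.5 against 130.3 CPM without treatment. The H4 genes other than HIST1H4C were barely counted at all, at 12.5 against 8.39 CPM and 11.6 against 7.07 CPM. Among H2A genes, HIST2H2AC gave ratios of 7.67 and 8.21, HIST1H2AJ 8.05 and 9.64, HIST1H2AM 6.96 and 8.19, and HIST1H2AH 5.50 and 8.05. These genes belong to a family of near-identical copies, so the split of reads among members is uncertain.

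Genes were compared between states when they averaged at least 10 CPM over the states and counted as higher or lower past 1.5-fold, with HIST1H4C left out. After domatinostat 335 genes were higher in histone-rich cells, 4.47% of 7498, and 150 were lower, so that 6.47% passed the fold either way. Without treatment 325 were higher, 4.30% of 7564, and 263 were lower, 7.77% either way. The median log2 ratio over all these genes was -0.03 after domatinostat and -0.04 without treatment. Of the 71 HIST genes, 11 reached the minimum in each library, some of them only through their level in histone-rich cells, and 10 and 11 of those were higher. Of genes measured in both libraries, 242 were higher in both, which is 74.7% of the 324 higher after domatinostat and 80.4% of the 301 higher without treatment. A further 82 were lower in both, 58.2% of the 141 lower after domatinostat and 34.2% of the 240 lower without treatment, and 0 genes passed the fold in opposite directions.

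**Figure D2:**
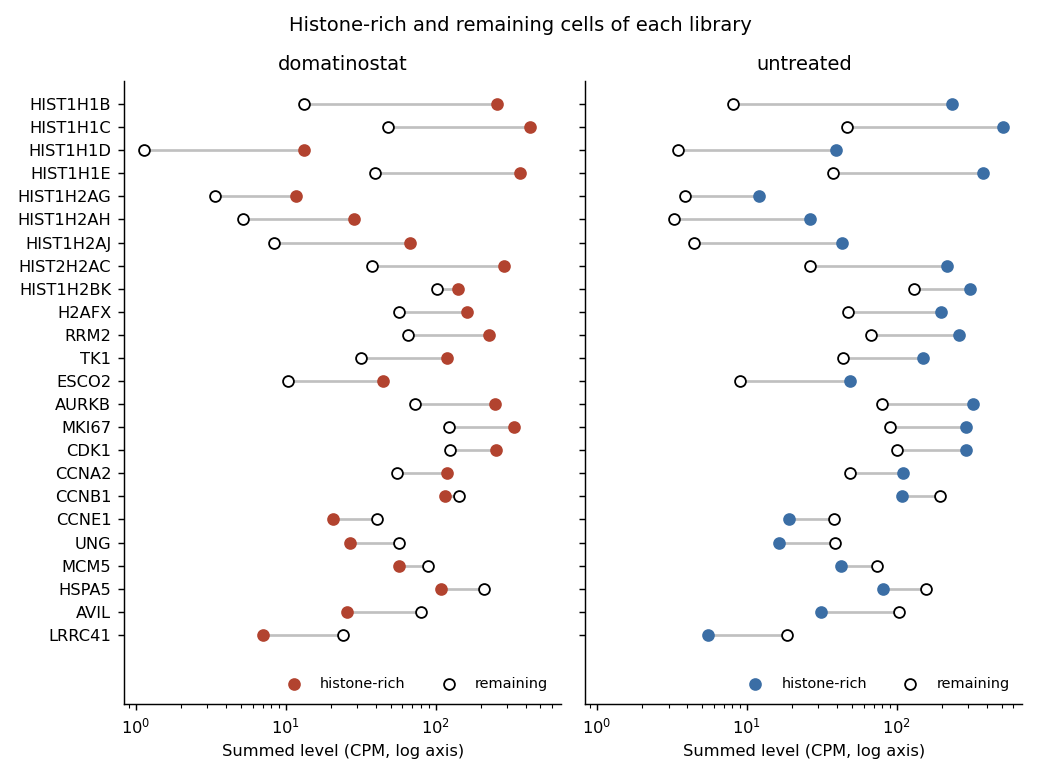
Summed level (CPM, log axis) of histone, replication and mitotic genes in histone-rich cells (filled points) and remaining cells (open points), domatinostat on the left and untreated on the right. The linker and H2A genes lie farthest apart, HIST1H1B at 258.1 against 13.2 CPM after domatinostat, while CCNE1, UNG, MCM5, HSPA5, AVIL and LRRC41 lie lower in histone-rich cells of both libraries.

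Enzymes that make DNA precursors were high in histone-rich cells. RRM2, the S-phase subunit of ribonucleotide reductase, was at 227.1 against 65.9 CPM after domatinostat and at 260.6 against 67.1 CPM without treatment, ratios of 3.45 (3.28 to 3.62) and 3.88 (3.65 to 4.13). TK1, the cytosolic thymidine kinase, was at 118.2 against 31.8 CPM and at 149.2 against 43.8 CPM, ratios of 3.72 (3.48 to 3.99) and 3.40 (3.14 to 3.69). Of 13 measured genes of deoxynucleotide synthesis, 7 were higher after domatinostat and 6 without treatment, with 0 lower and median log2 ratios of 0.62 and 0.57. The shares of all genes that were higher were 4.47% and 4.30%.

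The replication fork list was higher in part. Of 38 measured genes 17 were higher after domatinostat, and of 39 measured without treatment 16 were higher, with 0 lower in either. Among all genes 4.47% and 4.30% were higher. CDC45, part of the replicative helicase, was at 71.3 against 31.1 CPM after domatinostat and 71.8 against 34.4 CPM without treatment. KIAA0101, the PCNA-associated factor, was at 355.7 against 156.3 CPM and at 429.9 against 220.8 CPM. PCNA, the sliding clamp, was only at 609.8 against 490.0 CPM after domatinostat and at 537.6 against 442.6 CPM without treatment, under the fold in both.

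Genes of replication licensing and of the G1/S step were mixed. MCM10, which acts when forks fire, was higher, with ratios of 2.46 after domatinostat and 1.97 without treatment. MCM5, a subunit of the helicase loaded before replication, was lower, at 57.0 against 88.7 CPM after domatinostat and 42.6 against 74.1 CPM without treatment. In all 5 of 17 licensing genes were higher and 1 lower after domatinostat, and 4 higher and 1 lower of 17 without treatment. Over all genes 4.47% were higher after domatinostat and 4.30% without treatment. Of the G1/S cyclins and E2F genes, 4 of 18 were higher and 1 lower after domatinostat and 2 of 17 were higher and 2 lower without treatment, with median log2 ratios of 0.19 and 0.11. RBL1, a pocket protein that binds E2F, was higher with ratios of 1.73 and 1.64, and E2F7, a repressing E2F, gave 2.28 (1.93 to 2.69) after domatinostat and was under the minimum without treatment. CCNE1, the cyclin that drives entry into replication, was at 20.7 against 40.5 CPM and at 19.2 against 38.2 CPM, ratios of 0.510 (0.458 to 0.566) and 0.502 (0.414 to 0.605). UNG, the uracil-DNA glycosylase of early replication, gave 0.470 (0.428 to 0.515) and 0.426 (0.346 to 0.520). CCNE2 was level, with ratios of 0.961 and 1.00.

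Genes that make histone mRNA showed levels near those of the remaining cells. SLBP, the stem-loop binding protein, was at 164.1 against 167.3 CPM after domatinostat and at 170.4 against 188.0 CPM without treatment. NPAT, the coactivator at histone gene clusters, gave ratios of 1.06 and 1.02. Of 9 measured genes of this list 0 were higher in either library, against 4.47% and 4.30% of all genes, too few genes to set the list apart, and 1, HINFP, a regulator of H4 transcription, was lower without treatment at 7.71 against 13.2 CPM. Of histone chaperones 2 of 17 were higher after domatinostat and 1 of 16 without treatment, again too few to set the list apart from all genes. The chaperone ASF1B, which hands new H3 and H4 to the assembly complexes, led with 119.7 against 61.8 CPM and 158.6 against 88.9 CPM.

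Replacement histones, most of which are polyadenylated and made outside replication as well, had lower ratios as a set, though not gene by gene. Their median log2 ratios were 0.44 after domatinostat and 0.40 without treatment, against 2.8 and 3.26 for the clustered HIST genes. The HIST medians cover the 11 of 71 genes at the minimum in each library, some of them there only through histone-rich cells. Those cells were chosen by a HIST gene, so the distance between the 2 sets is a description and no test. H2AFX, the H2A variant that is phosphorylated at DNA breaks, was at 161.0 against 57.0 CPM after domatinostat and at 197.6 against 47.0 CPM without treatment, ratios of 2.83 (2.68 to 2.98) and 4.20 (3.91 to 4.52). H2AFZ was at 2701 against 1755 CPM and at 2782 against 1804 CPM. Of 10 measured replacement histones 5 were higher after domatinostat and 4 without treatment, with 0 lower, against 4.47% and 4.30% of all genes higher.

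Recombination and checkpoint genes were often higher, and cohesion genes less so by count. ESCO2, which acetylates cohesin on copied chromosomes, was at 44.5 against 10.3 CPM after domatinostat and at 48.9 against 8.93 CPM without treatment, ratios of 4.33 (3.85 to 4.88) and 5.48 (4.69 to 6.40). CDCA5, the sororin that locks cohesin, gave 3.45 and 3.33. These were the highest members of the cohesion list, of which 2 of 12 were higher after domatinostat and 3 of 12 without treatment, with 0 lower and median log2 ratios of 0.37 and 0.30. Of all genes 4.47% and 4.30% were higher. MND1, a recombination factor, gave 4.23 (3.75 to 4.78) and 4.62 (4.03 to 5.29). EXO1, a nuclease that trims DNA ends, gave 3.92 and 3.24. In each library 12 of 21 genes of the checkpoint and recombination list were higher and 0 lower, with median log2 ratios of 1.06 after domatinostat and 1.04 without treatment.

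Many mitotic genes were higher, with cyclin B at the low end. Of 25 mitotic cyclins and kinases, 12 were higher and 0 lower after domatinostat, and 14 were higher and 1 lower without treatment. Ratios below 1, at any size, were found for 1 of the 25 after domatinostat and 5 without treatment. Of 24 genes for chromosome condensation and the spindle, 20 were higher in each library. Over all genes 4.47% were higher after domatinostat and 4.30% without treatment. MKI67, which coats mitotic chromosomes, was at 332.9 against 121.9 CPM after domatinostat and 290.9 against 90.1 CPM without treatment. AURKB, the kinase of the chromosomal passenger complex, was at 250.5 against 72.7 CPM and 324.3 against 79.7 CPM, ratios of 3.44 (3.29 to 3.61) and 4.07 (3.85 to 4.30). Among cells of 8000 to 12000 UMIs the untreated ratio was 7.66 for AURKB and 5.78 for MKI67, and against remaining cells under 10 per 10000 the ratio after domatinostat was 6.19 for AURKB and 4.58 for MKI67. CDK1, the kinase that triggers mitosis, gave ratios of 2.02 and 2.92. CCNB1, its cyclin partner, was at 116.0 against 143.1 CPM after domatinostat and 108.4 against 194.9 CPM without treatment, ratios of 0.810 (0.773 to 0.849) and 0.556 (0.514 to 0.601), of which the first was 1.01 against remaining cells under 10 per 10000 and the second 0.806 among cells of 8000 to 12000 UMIs, short of the fold. CCNB2 gave 1.01 and 0.741, and these 2 were the lowest of the list in each library.

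Cell cycle scores put the histone-rich cells in a mixed position, which bears on the name of replicating cells. Scores used 40 S and 54 G2/M genes, with no HIST gene among them, in cells thinned to 4351 UMIs and with both libraries scored together. After domatinostat 78.7% (76.8 to 80.5) of histone-rich cells were called G2/M, 21.3% S and 0% G1. Without treatment 79.9% (76.0 to 83.4) were called G2/M, 20.1% S and 0% G1. By counting error alone, 0 G1 calls allow a share of such calls of up to 0.184% of 2004 cells after domatinostat and 0.770% of 477 cells without treatment. At the deeper thinning to 8578 UMIs the G2/M calls were 69.1% and 67.8%. The remaining cells were mostly called S, 62.7% after domatinostat and 61.4% without treatment. Both scores were above 0 in 92.0% of histone-rich cells after domatinostat and 89.5% without treatment, against 18.2% and 15.9% of remaining cells. RRM2, which is among the S genes of the scores, was at 210.3 CPM in histone-rich cells called G2/M and 299.0 CPM in those called S after domatinostat, and at 239.3 and 351.9 CPM without treatment. The cells are called here by their histone content. The scores take in each gene's counts and any free RNA, and their part in the calls was not tested.

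**Figure D3:**
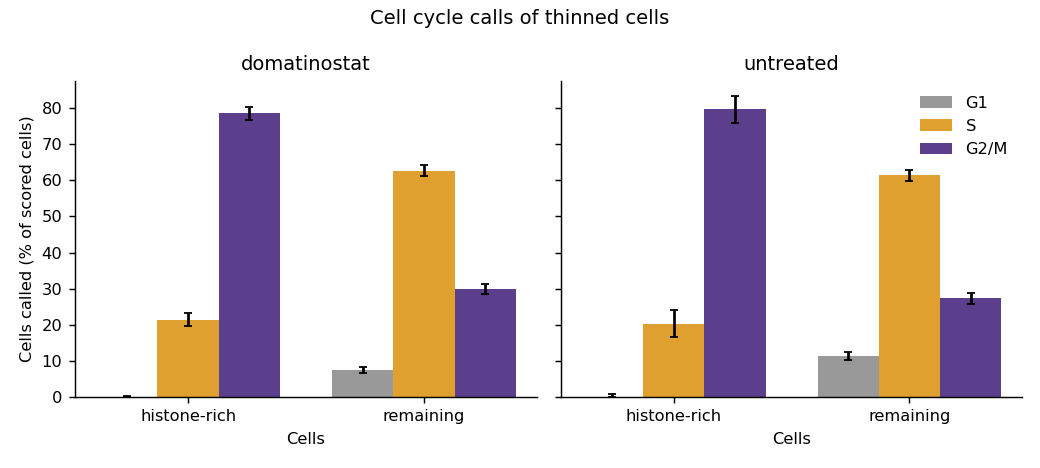
Share of scored cells (%, vertical axis) called G1, S or G2/M among histone-rich and remaining cells, domatinostat on the left and untreated on the right, with 95% exact intervals. G2/M calls reach 78.7% of histone-rich cells after domatinostat and 79.9% without treatment, and no histone-rich cell is called G1.

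The 1577 treated and 381 untreated histone-rich cells called G2/M were set beside remaining cells with the same call, for genes outside the score lists. CCNB1 was at 132.1 CPM in histone-rich G2/M cells against 394.7 CPM in remaining G2/M cells after domatinostat, and at 123.2 against 584.1 CPM without treatment. PIF1, a helicase, was at 88.6 against 161.2 CPM and at 65.9 against 81.1 CPM. The securin PTTG1, picked after its values were seen, was at 624.3 against 1330 CPM and at 710.9 against 1639 CPM. In the other direction TK1 was at 113.1 against 40.4 CPM after domatinostat and 143.6 against 43.9 CPM without treatment, and ESCO2 at 44.1 against 16.7 CPM and 48.8 against 12.8 CPM. CCNA2, which acts from replication to early mitosis, was closer, at 124.9 against 144.6 CPM and 111.6 against 134.0 CPM.

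The 427 treated and 96 untreated histone-rich cells called S were likewise set beside remaining cells called S. CCNE1 was at 29.4 CPM in histone-rich S cells against 60.4 CPM in remaining S cells after domatinostat and at 37.4 against 59.9 CPM without treatment. CCNA2 was at 96.1 against 11.4 CPM and at 104.8 against 9.89 CPM. TK1 was higher here as well, at 142.1 against 30.1 CPM and at 173.1 against 50.1 CPM. HIST1H1B stood at 253.2 CPM in G2/M-called and 252.8 CPM in S-called histone-rich cells after domatinostat, and at 235.9 and 209.7 CPM without treatment. Summed over the remaining cells of each call it was lower, at 18.3 CPM in G2/M-called, 11.1 in S-called and 5.43 in G1-called cells after domatinostat, and at 9.09, 7.46 and 9.39 CPM without treatment. Within the remaining cells its level rose with that of HIST1H4C, as given next.

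Ranked by their HIST1H4C level, the cells showed different courses for different genes. The ranges below 5, 5 to 20, 20 to 50, 50 to 100 and at least 100 per 10000 held 1969, 2225, 321, 682 and 1482 cells after domatinostat and 2426, 1079, 143, 249 and 240 cells without treatment. HIST1H1B climbed through 12.3, 52.8, 183.3 and 295.4 CPM in the upper 4 ranges after domatinostat, and through 11.6, 64.9, 174.8 and 293.9 CPM without treatment. RRM2 climbed likewise, from the range below 5 upward through 47.6, 65.9, 149.3, 203.5 and 238.8 CPM after domatinostat and 59.9, 67.7, 169.6, 234.0 and 289.3 CPM without treatment. These genes were still higher in the cells with the most H4 transcript than in those just above the threshold.

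PIF1 peaked in the range just below the threshold. It was at 11.2, 57.7, 241.8, 113.6 and 50.04 CPM over the ranges after domatinostat and at 12.5, 38.7, 162.8, 80.4 and 24.3 CPM without treatment. CCNB1 had its highest level there after domatinostat, 253.1 CPM against 100.8 CPM in the top range. Without treatment CCNB1 was highest in the lowest range, at 232.8 CPM, and reached 178.7 CPM in the 20 to 50 range and 84.3 CPM in the top range. UNG ran the other way, with 63.2 CPM in the lowest and 21.7 CPM in the top range after domatinostat and 39.3 and 16.7 CPM without treatment.

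**Figure D4:**
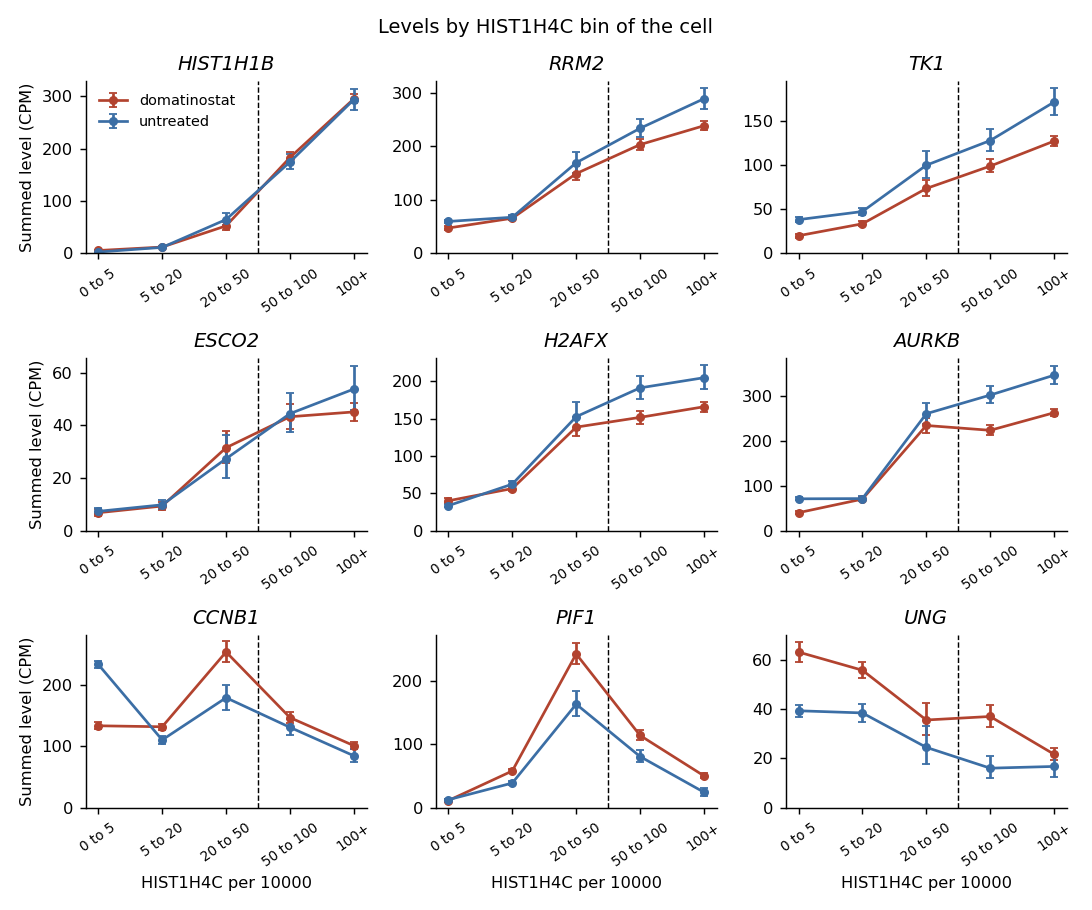
Summed level (CPM, vertical axes from 0) of 9 genes by the HIST1H4C range of the cell (UMIs per 10000, horizontal axes), domatinostat in red and untreated in blue, with 95% exact intervals of the counts and the threshold dashed. HIST1H1B, RRM2 and TK1 climb to the top range in both libraries, while PIF1 is highest between 20 and 50, at 241.8 CPM after domatinostat and 162.8 CPM without treatment.

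The lowest ratios in histone-rich cells belonged to genes of various roles. AVIL, an actin-binding villin relative, was at 25.7 against 80.1 CPM after domatinostat and at 31.0 against 104.2 CPM without treatment, ratios of 0.321 (0.292 to 0.351) and 0.298 (0.257 to 0.343). LRRC41 was at 7.10 against 24.2 CPM and at 5.51 against 18.6 CPM. The ER chaperone HSPA5 gave 0.518 (0.495 to 0.543) and 0.514 (0.469 to 0.562), and the cytosolic chaperone HSPA8 gave 0.599 and 0.556. They were the 2 of 16 heat shock and metallothionein genes that were lower in each library, too few to set the list apart. Of all genes, 150 of 7498 were lower after domatinostat and 263 of 7564 without treatment. In the same list 0 genes were higher after domatinostat and 1, MT3, was higher without treatment. The histone demethylases KDM6B, at 8.50 against 19.7 CPM after domatinostat, and KDM5B, at 19.2 against 56.8 CPM without treatment, were among the 10 lowest of those libraries. Ribosomal protein transcripts took a median of 20.1% of UMIs in histone-rich and 22.4% in remaining cells after domatinostat, and 18.7% and 20.9% without treatment.

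Few lineage genes of the tumour passed the fold between states, a share near that of all genes. Of 15 measured Merkel lineage genes 1, NCAM1, a neural adhesion molecule, was higher after domatinostat with 41.8 against 26.6 CPM, and 0 of 16 passed the fold without treatment, against 6.47% and 7.77% of all genes either way. Of class I histone deacetylases and partners 1 of 14 after domatinostat and 1 of 13 without treatment passed, likewise near the share of all genes, and it was SAP30, a SIN3 complex subunit, with 178.5 against 99.8 CPM after domatinostat and 169.6 against 90.1 CPM without treatment. CDKN1A was lower after domatinostat, short of the fold, with a ratio of 0.695 (0.634 to 0.759), and gave 0.887 (0.811 to 0.970) without treatment.

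Inside the histone-rich state, domatinostat was set against no treatment. In this comparison 212 of 7498 genes, 2.83%, were at least 1.5-fold higher after domatinostat and 410 lower, 8.30% either way. In the remaining cells 112 of 7580 genes, 1.48%, were higher and 354 lower, 6.15% either way. Over all genes the median log2 ratio was 0.04 in histone-rich and 0.03 in remaining cells. The 2 comparisons use the same libraries, so their values are given side by side only. The histone-rich cells of the libraries were not at the same HIST1H4C level: 1482 of 2164 after domatinostat and 240 of 489 without treatment held at least 100 per 10000, and the summed level was 11655 against 10149 CPM.

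Most replication and mitotic genes stayed under the fold between the libraries inside the state. Of 13 genes of deoxynucleotide synthesis, 39 of the replication fork, 18 of licensing, 25 mitotic cyclins and kinases and 24 of condensation and the spindle, 0 passed the fold in either direction. Over all genes 8.30% passed it either way. Of 12 cohesion genes 1 was higher after domatinostat, STAG1. Of the 40 S score genes 1 was higher, UNG, at 26.75 against 16.32 CPM in scored histone-rich cells. TK1 was at 118.2 CPM after domatinostat against 149.2 CPM without treatment, a ratio of 0.792 (0.735 to 0.854). AURKB gave 0.772 (0.734 to 0.813) and TOP2A, the topoisomerase that untangles copied DNA, 1.36 (1.31 to 1.41). Of 21 checkpoint and recombination genes 1 passed, CHEK2, a checkpoint kinase, at 24.7 CPM after domatinostat against 38.2 CPM without treatment. Its ratio was 0.646 in histone-rich and 0.597 in remaining cells, and the call in histone-rich cells ended among cells of 8000 to 12000 UMIs, at 0.728.

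Histone genes themselves went different ways between the libraries. Of 18 that reached the minimum, 1 was higher and 3 were lower after domatinostat, against 8.30% of all genes either way. HIST1H2AJ was at 67.6 CPM after domatinostat against 42.8 CPM without treatment, a ratio of 1.58 (1.39 to 1.80) that fell short of the fold in cells of 100 to 150 per 10000, at 1.47. HIST1H1D was at 13.3 against 39.2 CPM, a ratio of 0.339 (0.286 to 0.403), and HIST1H2AC at 5.65 against 14.6 CPM, a ratio of 0.386 (0.293 to 0.511). HIST1H2BK was at 140.7 against 306.5 CPM, a ratio of 0.459 (0.434 to 0.486), and in the remaining cells at 101.9 against 130.3 CPM, a ratio of 0.782 (0.750 to 0.816). The H2B gene thus stood further apart between libraries among histone-rich cells, whereas HIST1H1D gave 0.324 (0.224 to 0.459) in remaining cells, near its value in histone-rich cells. HIST1H1C gave 0.844 in histone-rich and 1.03 in remaining cells.

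The genes with the lowest ratios to the untreated library were low in both states. S100A2, a calcium-binding protein, was at 1.72 CPM after domatinostat against 27.9 CPM without treatment in histone-rich cells, a ratio of 0.0617 (0.0423 to 0.0880) that was 0.0339 in cells of 100 to 150 per 10000 and 0.310 with a pseudocount of 10 CPM, and at 1.58 against 14.4 CPM in remaining cells. TCEA3, a transcription elongation factor, was at 19.3 against 113.9 CPM in histone-rich and at 10.4 against 71.8 CPM in remaining cells. TMIGD2, SYNGR4, CALCB, S100A6, BCL2L12, ANXA2, GNG3 and TMEM54 made up the rest of the 10 lowest, with ratios of 0.139 to 0.200 in histone-rich and 0.168 to 0.303 in remaining cells. S100A2 was the one of these that differed most between untreated states, being 1.93-fold (1.62 to 2.29) higher in untreated histone-rich than untreated remaining cells.

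The highest ratios were smaller. CACFD1 was at 47.5 CPM after domatinostat against 15.6 CPM without treatment in histone-rich cells, a ratio of 3.05 (2.48 to 3.79), and at 40.6 against 19.2 CPM in remaining cells. The transcription factors IRX2 and GATA5 gave 2.22 (1.93 to 2.58) and 2.25 (1.79 to 2.85) in histone-rich cells and 1.92 and 1.80 in remaining cells. FASN, the fatty acid synthase, gave 2.13 and 1.66, and SNTG1, a syntrophin, 2.38 and 1.82. FBXW11, an F-box protein of ubiquitin ligases, was at 15.6 against 6.92 CPM in histone-rich cells, a ratio of 2.25 (1.64 to 3.16), and at 16.3 against 15.0 CPM in remaining cells, a ratio of 1.09 (0.971 to 1.22).

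**Figure D5:**
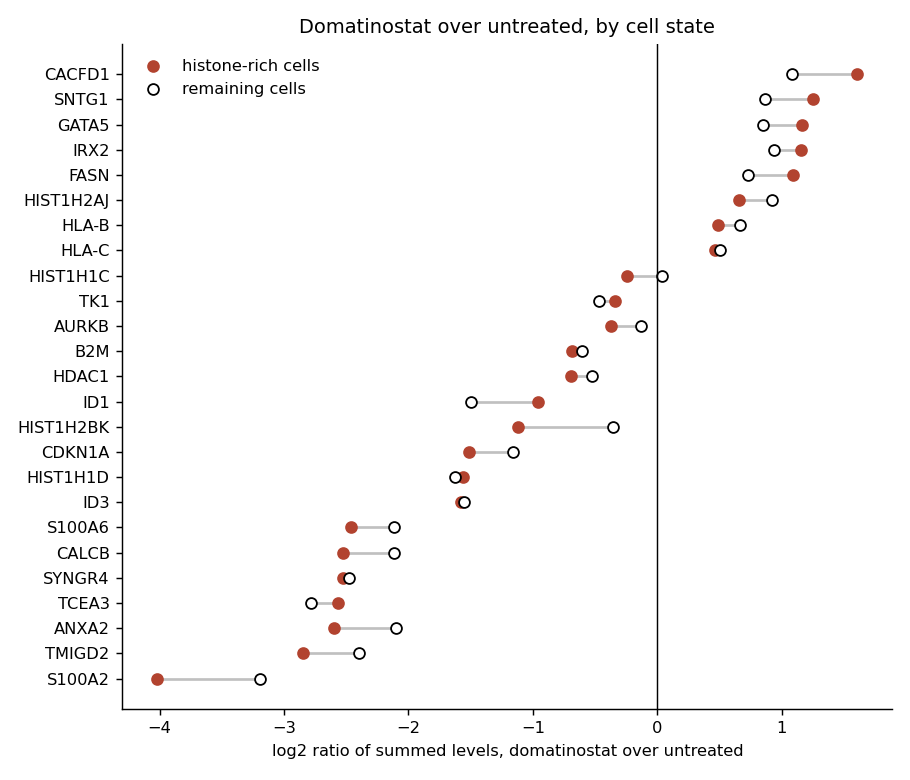
Log2 ratio of summed levels, domatinostat over untreated (horizontal axis), for 25 genes in histone-rich cells (filled points) and remaining cells (open points). S100A2 lies lowest and CACFD1 highest in histone-rich cells, and HIST1H2BK shows a wide distance between the states, with ratios of 0.459 in histone-rich and 0.782 in remaining cells.

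Genes of immune display were uneven. HLA-B, an antigen-presenting class I heavy chain, was at 1441 CPM after domatinostat against 1027 CPM without treatment in histone-rich cells and at 1680 against 1059 CPM in remaining cells. HLA-C gave 1.38 (1.35 to 1.41) and 1.42 (1.41 to 1.44). B2M, the light chain of class I molecules, was at 298.9 against 481.0 CPM in histone-rich and 314.2 against 479.1 CPM in remaining cells.

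HDAC1, a target of the inhibitor, was at 50.6 against 82.0 CPM in histone-rich cells, a ratio of 0.617 (0.556 to 0.686) that was 0.686 among cells of 8000 to 12000 UMIs, short of the fold, while HDAC2 gave 0.815 and HDAC3 0.915. The differentiation inhibitors ID1 and ID3 were lower after domatinostat in both states: ID1 gave 0.514 (0.487 to 0.543) in histone-rich and 0.353 (0.342 to 0.365) in remaining cells, and ID3 0.335 and 0.340. Of the cyclin-dependent kinase inhibitors, CDKN1B was at 71.7 CPM after domatinostat against 45.6 CPM without treatment in histone-rich cells, a ratio of 1.57 (1.39 to 1.79). That ratio was short of the fold at a threshold of 100, at 1.41, and 1.37 in the lowest of 8 alternatives. In the remaining cells CDKN1B was at 50.2 against 33.7 CPM. Of 15 Merkel lineage genes SOX2 was higher, at 123.5 against 80.7 CPM (a ratio of 1.53, and 2.40 among cells of 8000 to 12000 UMIs), and 3 keratins were lower, KRT18 the lowest at 162.8 against 313.0 CPM. Over all genes 8.30% passed the fold either way in this comparison.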

How the data were processed

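Single-cell 3′ libraries of domatinostat-treated and untreated WaGa cells were analysed, 1 per group (10x Genomics v2.0 chemistry, per the labels' protocols). Cell Ranger, Seurat and the build hg19 were used, per the submitters' processing notes; cell filters and annotation are not given in the sources used here. A single table was deposited by the authors, with 32742 genes and 10816 cells, whose values are the natural log of 1 plus counts per 10000 counts of the cell. Taking the smallest value above 0 of a cell as 1 UMI made 100% of the deposited natural log values whole counts within a tolerance of 1e-06, and these UMI counts were used.

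UMIs were summed over histone-rich and remaining cells of each library and given in counts per 1000000 (CPM). Ratios carry 95% exact intervals from the binomial share of UMIs (Clopper-Pearson). Genes averaging at least 10 CPM were counted past 1.5-fold. There was no test, since each group had 1 library. UMIs of 1 cell are not independent samples of a condition, so the intervals say nothing about the spread between cultures. For calls per cell, UMIs were drawn without replacement down to 4351 in every cell, which left out 667 cells after domatinostat and 245 without treatment, and phases were called with scanpy 1.11.5. Cells were not filtered further and doublets were not called. The ratio step was tested on simulated data.

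The named genes were the 10 highest and 10 lowest of each comparison by the interval bound nearest to 1, leaving out mitochondrial, ribosomal protein and clone-based names, up to 2 at each end of every gene list, all HIST genes above the minimum and 20 genes by name. PTTG1 was picked after its values were seen, as were HIST genes under the minimum, the members of marker sets, and the motifs and ranges shown. The members and lists were chosen with earlier results of these data known. Python 3.11.15, numpy 2.4.6, scipy 1.17.1 and pandas 2.3.3 were used. The alternatives changed the threshold, gene minimum, fold, scaling, cell weights, pseudocount, cells and thinning depth.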

Additional observations from a re-analysis of the deposited data

How the results depend on the processing

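No paired analysis was possible because each group had 1 library. The share of histone-rich cells was 35.8% after domatinostat and 14.3% without treatment at a threshold of 25 per 10000, 22.2% and 5.80% at 100, and 40.5% and 8.49% among cells of 8000 to 12000 UMIs. Thinning to 8578 UMIs gave 45.2% and 14.8%. Thinning to 4351 UMIs, leaving out the deepest 5% of cells or the shared barcodes, and scaling to other genes kept both shares inside their intervals. S calls of histone-rich cells were 24.1% after domatinostat with each library scored alone, 30.9% after domatinostat and 32.2% without treatment at the deeper thinning, and 17.3% and 15.2% at the threshold of 100. G2/M calls were 75.9% after domatinostat with libraries scored alone, 69.1% and 67.8% at the deeper thinning, and 82.7% and 84.8% at the threshold of 100.

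Counts of genes moved with the settings, and the cause was not tested beyond what the settings do by construction. After domatinostat, higher and lower genes in histone-rich cells numbered 130 and 31 at a minimum of 50 CPM, 105 and 21 at 2-fold, and 203 and 42 with a pseudocount of 10 CPM, and lower genes 248 at a minimum of 5 CPM. Without treatment they numbered 120 and 37 at 50 CPM, 105 and 18 at 2-fold, 185 and 63 with the pseudocount, and 599 and 533 among cells of 8000 to 12000 UMIs. Lower genes without treatment were 465 at 5 CPM and 398 at a threshold of 100. Between libraries inside the histone-rich cells, higher and lower genes were 421 and 719 at 5 CPM, 27 and 75 at 50 CPM, 10 and 136 at 2-fold, and 38 and 201 with the pseudocount. Higher genes were 346 at a threshold of 100, 548 in the window of UMIs and 374 in cells of 100 to 150 per 10000, a range chosen after the data were seen. Of the 65 gene ratios followed under the alternatives, 1 crossed 1, CCNB1 after domatinostat, which is under the fold and was 1.01 against remaining cells under 10 per 10000. A further 19 moved by over 1.5 times in at least 1 setting, among them ESCO2 (2.69 to 6.57 after domatinostat and 3.11 to 6.48 without treatment), HIST1H2AJ (4.22 to 10.4 and 3.66 to 14.2) and LRRC41 (0.263 to 0.5002 and 0.286 to 0.602). The 20 genes with the most extreme ratios of each comparison stayed past 1.5-fold under every alternative of cells, threshold, scaling, weights and pseudocount. Depth limits these counts: 115 untreated histone-rich cells fell in the UMI window. With a pseudocount of 10 CPM the ratios of CDKN1B (1.47), CHEK2 (0.719), HIST1H2AJ (1.47) and SOX2 (1.47) between libraries and of MCM5 after domatinostat (0.679) fell short of the fold, as did UBE2C without treatment at a threshold of 100 (1.48), and CDKN1B with equal weight for each cell (1.49).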
